A study of Homo sapiens with 10 samples.

Results

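The tripartite motif (TRIM) genes other than TRIM71 were examined in RNA sequencing of cells derived from the human embryonic stem cell (hESC) line H9, with or without overexpression of DAZL, an RNA-binding protein of germ cells. Members were every entry of the table whose name is TRIM followed by a number and optional letters, without TRIM71 and without names ending in P or in P and digits. This gave 126 of 64940 entries with 78 different names. Of the 126 entries, 48 were additional copies of a name with no entry in the primary GENCODE 44 annotation, and 0 of these were above 0 in any library. Of the other 78 entries, 7 were annotated as pseudogenes, namely 6 TRIM60-related names on chromosome Y, all listed at 0, and TRIM16L, which was expressed. The remaining 71 included 18 listed at 0 in all 4 libraries. In all, 54 entries were above 0 in at least 1 library, and 42 were tested because their mean reached 1 TPM, where TPM is transcript abundance corrected for length and scaled to the same total in each library. The entries that passed this filter are therefore not the whole family.

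The control group had 2 libraries, labelled as wild-type H9 derivatives that underwent spontaneous differentiation. The oeDAZL group had 2 libraries, labelled as human primordial germ cell-like cells (hPGCLCs) from H9 in which DAZL was overexpressed. The deposited design text describes the controls as wild-type PGCLCs instead, and the study's own legends speak of control hPGCLCs and, for its sorted cells, of controls that express the fluorescent protein alone. The study's methods differentiate H9 with BMP4 and BMP8a on Matrigel for 6 days and deliver DAZL by lentivirus, in a vector that also expresses a green fluorescent protein for cell sorting. These sources disagree on whether the controls received the BMPs and a control virus, so an effect of DAZL, of the virus and of a different culture cannot be told apart here. All samples share the H9 background, and no source used here says whether replicates came from separate cultures, so the p-values measure the spread between these samples, which may be technical. DAZL was listed at 0 and 0.0333 TPM in the controls and at 101.7 and 100.7 TPM in oeDAZL.

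The libraries were checked against markers of the labelled cells. The PGC genes NANOS3, SOX17, PRDM1 and DPPA3 lay between 0.716 and 3.35 TPM in all 4 libraries and NANOG lay below 1 TPM, whereas HAND1, a mesoderm and amnion gene, lay between 958 and 1250 TPM and the epithelial keratin KRT7 between 567 and 675 TPM. TFAP2C, which PGCs share with amnion, lay between 44.3 and 53.9 TPM, and POU5F1 at 13.6 and 10.6 TPM in the controls and 22.4 and 20.4 TPM in oeDAZL. The PGC label is thus mostly not borne out by these defining markers, and the groups are called control and oeDAZL here. The summed level of 7 mesoderm and mesenchyme markers was 2624 and 2447 TPM in the controls and 2116 and 2155 TPM in oeDAZL, with 4 lower and 1 higher at an unadjusted p under 0.05. None of the 7 was at 0. Over all tested genes, 15.2% were lower and 5.02% higher at that threshold, shares that stand beside every marker count in this paragraph. The sum of 11 PGC markers was 118 and 125 TPM in the controls and 140 and 137 TPM in oeDAZL, with 2 of 8 tested higher and 0 lower. The 2 higher genes were POU5F1 and PDPN, which are not particular to PGCs, whereas NANOS3, PRDM1 and KIT had oeDAZL values below both controls without passing the test. Of 6 amnion and trophoblast markers, 3 were lower (CGA, CDX2 and ISL1) and 0 higher, while their sum was 961 and 970 TPM in the controls and 992 and 981 TPM in oeDAZL. Of 4 endoderm markers, 1 was lower (AFP) and 0 higher, with overlapping sums of 220 and 135 TPM in the controls and 138 and 171 TPM in oeDAZL. Of 2 tested neural markers, PAX6 was lower and TUBB3 had a log2 fold change of 0.22 without passing, with overlapping sums of 183 and 230 TPM against 249 and 226 TPM. Of 3 tested markers of undifferentiated hESCs, DNMT3B was higher, while LIN28A and SOX2 had oeDAZL values below both controls without passing, and the sum was 531 and 483 TPM against 481 and 461 TPM. Some of these calls depended on control replicate 1. For PDPN, the mesoderm marker TBXT, ISL1, AFP and PAX6, control replicate 2 lay nearer to both oeDAZL values than to control replicate 1. AFP, for example, was at 36.3 and 13.1 TPM in the controls and 8.91 and 11.6 TPM in oeDAZL. The part of the marker shifts in the TRIM results was not tested, and in bulk RNA fewer cells of a type and less RNA per cell cannot be told apart. The 2 controls lay apart from each other on the first principal component (-30.1 for replicate 1 and -7.97 for replicate 2, against 22.4 and 15.7 for oeDAZL). Control replicate 1 was the farther from oeDAZL. For members described in full, a log2 fold change that moved by over 1.5 times without control replicate 1 is therefore given both ways.

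TRIM proteins share an N-terminal module of a RING finger, B-boxes and a coiled coil, and most act as ubiquitin or SUMO ligases. The C-terminal part varies and divides the family into classes. PRY-SPRY domains serve recognition of protein partners and include antiviral sensors, NHL repeats bind proteins and RNA, COS domains bind microtubules, and the PHD finger and bromodomain of the TIF1 class read histones. TRIM28, also called KAP1, is the best known member in pluripotent and germline cells, where KRAB zinc finger proteins recruit it to silence transposable elements. TRIM71, left out here, is a classical target of let-7 miRNAs.

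The finding turned on TRIM52, a gene of the minus strand at chr5:181254077-181261150 (hg38) near the end of the long arm. Its promoter is shown because the start of the divergent gene TRIM52-AS1 lies in the same window and TRIM52 alone passed the test. RefSeq on GRCh38.p14 places the start of TRIM52 at 181261143 and that of TRIM52-AS1 at 181261212. The window of 300 bases at chr5:181261094-181261393, read on the minus strand, has the 68 bases between these starts in capitals, and its GC content was 71.0%, against a median of 58.7% over 35116 RefSeq promoter windows of the same length.

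TRIM52: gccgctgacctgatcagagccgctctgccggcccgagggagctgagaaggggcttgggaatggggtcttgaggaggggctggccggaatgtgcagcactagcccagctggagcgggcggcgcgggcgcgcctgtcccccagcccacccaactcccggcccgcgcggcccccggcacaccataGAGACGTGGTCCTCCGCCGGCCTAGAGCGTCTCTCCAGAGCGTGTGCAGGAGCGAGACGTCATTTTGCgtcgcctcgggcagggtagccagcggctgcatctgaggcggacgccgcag

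TRIM52 RNA fell in oeDAZL. Its level was 14.1 and 13.6 TPM in the controls and 4.49 and 4.79 TPM in oeDAZL. The groups were far apart relative to the spread within them, with means of 13.9 ± 0.320 TPM in control and 4.64 ± 0.216 TPM in oeDAZL (SD, n = 2 each), so that the oeDAZL mean was 33.4% of the control mean. On the log2(TPM + 1) scale the change was -1.40 (SE 0.12, 95% CI -1.69 to -1.11), with an adjusted p-value of 0.0425 from limma with Benjamini-Hochberg adjustment over 16687 genes. TRIM52 was the only tested member with an adjusted p under 0.05 (1 of 42, or 2.38%), against 10 of all tested genes (0.0599%). It was also the only member past the thresholds of the study, 2-fold or more with an unadjusted p no higher than 0.05. Here these were applied to limma on log2(TPM + 1), and 115 tested genes passed (0.689%). The study applied them to read counts with DESeq2 and reported more genes, so this count does not stand for its list. TRIM52 encodes a short TRIM protein with a RING finger and a B-box and no C-terminal domain.

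The size of the TRIM52 difference varied little with the processing, whereas its adjusted p-value crossed the threshold. Over 12 alternatives the log2 fold change lay between -1.56 and -1.27 and TRIM52 kept a 2-fold change with an unadjusted p of at most 0.05 in all 12. The adjusted p-value in limma lay between 0.0352 and 0.322 and was under 0.05 in 4 of the 12. The lowest came without control replicate 2, where 4.03% of all tested genes had an adjusted p under 0.05. It was 0.164 without control replicate 1, 0.131 without oeDAZL replicate 1 and 0.0908 without oeDAZL replicate 2.

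**Figure D1:**
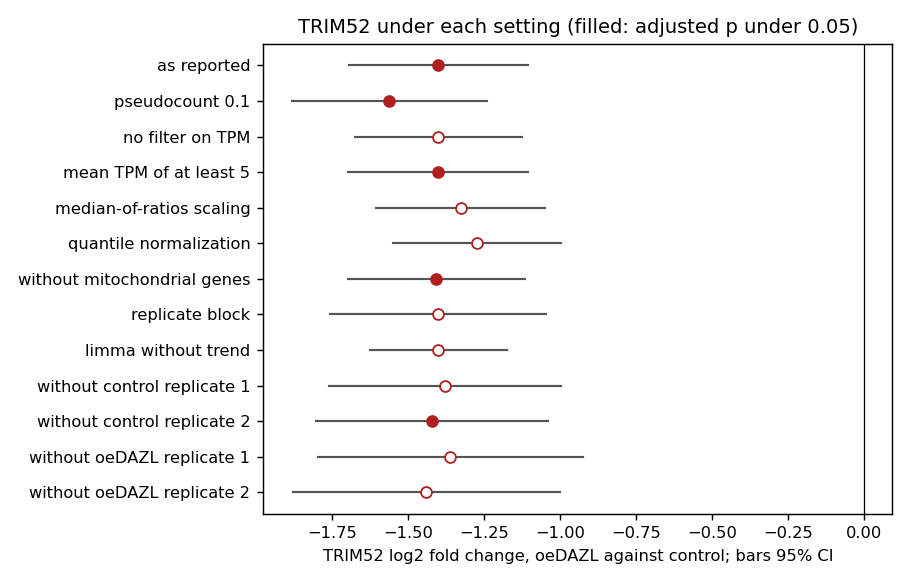
TRIM52 log2 fold change of oeDAZL against control (horizontal axis, on log2(TPM + 1) except for the other pseudocount) as reported and under each of the 12 alternatives (rows), with points for the estimate, bars for the 95% CI and filled points where the limma adjusted p was under 0.05. All intervals lie below 0, and 4 of the 12 alternatives have filled points.

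Of the genes around TRIM52, 0 had an adjusted p under 0.05 in limma, and a difference between genes was not itself tested. TRIM52-AS1, a non-coding gene that starts beside TRIM52 and is transcribed away from it, was at 16.2 and 15.9 TPM in the controls and at 17.8 and 14.7 TPM in oeDAZL. The groups overlapped, and the log2 fold change was 0.01 (95% CI -0.27 to 0.30), an interval apart from that of TRIM52. AC008443.1, a gene of the plus strand at chr5:181246466-181272167 that spans TRIM52 on the opposite strand, was at 16.0 and 13.3 TPM in the controls and at 16.5 and 16.6 TPM in oeDAZL. Its log2 fold change was 0.17 (95% CI -0.11 to 0.45, limma adjusted p 0.450). The exons of AC008443.1 and TRIM52 share 1868 bases, which is 27.6% of the 6779 exonic bases of TRIM52. Whether the libraries were stranded is not given in the sources used here, and without strand the reads of such overlapping genes cannot be told apart, so the split between TRIM52 and AC008443.1 is uncertain. The exons of TRIM52-AS1 share 0 bases with those of TRIM52. TRIM52-AS1, at chr5:181261169-181272307, overlaps the span of AC008443.1 on the same strand. Whether their exons share bases was not examined, so the split of reads between TRIM52-AS1 and AC008443.1 is uncertain too.

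RACK1, which encodes a ribosome-associated scaffold protein and is the next gene downstream of TRIM52, was at 1846 and 1544 TPM in the controls and 1617 and 1670 TPM in oeDAZL. The groups overlapped, with a log2 fold change of -0.04. TRIM41, a PRY-SPRY ligase gene beyond RACK1, was at 33.2 and 30.3 TPM in the controls and 26.5 and 29.0 TPM in oeDAZL. Its groups did not overlap, yet the log2 fold change of -0.19 had a limma adjusted p of 0.298, and it was -0.12 without control replicate 1. TRIM7, the third family member of this chromosome end, lay between 0.0871 and 0.272 TPM and was not tested.

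Of the other 41 tested members, 0 had an adjusted p under 0.05 in limma. At an unadjusted p under 0.05, 8 of 42 members were lower in oeDAZL, TRIM52 included (19.0%), against 15.2% of all tested genes, and 1 was higher (2.38%), against 5.02%. Both shares were near those of the whole table. Every library value of oeDAZL lay below both controls for 22 members (52.4%), against 38.4% of tested genes, and above both for 7 members (16.7%), against 16.0%. A lower mean log2 level, whatever the p, was seen for 30 of 42 members (71.4%), against 65.3%. The median log2 fold change was -0.18 over the 42 members (quartiles -0.28 and 0.01), the same without TRIM52, and -0.08 over all tested genes (quartiles -0.24 and 0.06).

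These counts at an unadjusted p depended on the scaling and on single libraries. Under median-of-ratios scaling, 4 members were lower and 4 higher (9.16% and 9.95% of all tested genes), and under quantile normalization 5 were lower and 4 higher (9.07% and 8.40% of all tested genes), in place of 8 and 1. Of the 4 higher, TRIM35, TRIM37 and TRIM6 were shared by both scalings. The other was TRIM59 under median-of-ratios scaling and TRIM73 under quantile normalization. Without control replicate 1, 4 were lower and 2 higher, beside 10.3% and 4.67% of all tested genes. Without control replicate 2, 13 were lower and 1 higher, beside 19.7% and 8.04%. Without oeDAZL replicate 1, 4 were lower and 1 higher, beside 7.35% and 2.14%, and without oeDAZL replicate 2, 5 were lower and 0 higher, beside 9.64% and 3.16%. The share of all tested genes that were lower thus moved with the left-out library too, being highest without control replicate 2. TRIM52, TRIM24 and TRIM5 were lower at an unadjusted p under 0.05 in all 13 settings, the reported one included, and TRIM16L in 12. TRIM37 was higher at that threshold in 9 settings, TRIM2, TRIM28 and TRIM3 were lower in 7, and TRIM55 in 4.

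By level, TRIM28 stood alone. It made up 37.7% and 37.1% of the summed TPM of all members in the controls and 36.7% and 36.4% in oeDAZL. The sum was 1274 and 1198 TPM in the controls and 1099 and 1141 TPM in oeDAZL, and without TRIM28 it was 793 and 753 TPM against 696 and 726 TPM. The groups did not overlap in either sum. Next by the mean over the 4 libraries came TRIM24, TRIM55, TRIM37 and TRIM33, an order that differed within groups. In control the mean of TRIM33 (44.38 TPM) lay above that of TRIM37 (42.81 TPM). In oeDAZL the mean of TRIM55 (53.4 TPM) lay above that of TRIM24 (50.45 TPM). The values overlapped in both cases. Besides TRIM28, 16 members had a mean between 20 and 100 TPM, 16 between 5 and 20 TPM and 9 between 1 and 5 TPM. The number of members at 1 TPM or more was 43, 43, 42 and 43 in the 4 libraries. The median coefficient of variation between the replicates of a member was 7.77% in control and 5.14% in oeDAZL. TRIM22, an interferon-induced antiviral gene, had the highest such coefficient among the 42 tested members in control (51.0%). It was at 5.53 and 11.8 TPM in the controls and 9.81 and 6.83 TPM in oeDAZL. Within oeDAZL the highest was that of TRIM61 (32%, against 25.3% for TRIM22).

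**Figure D2:**
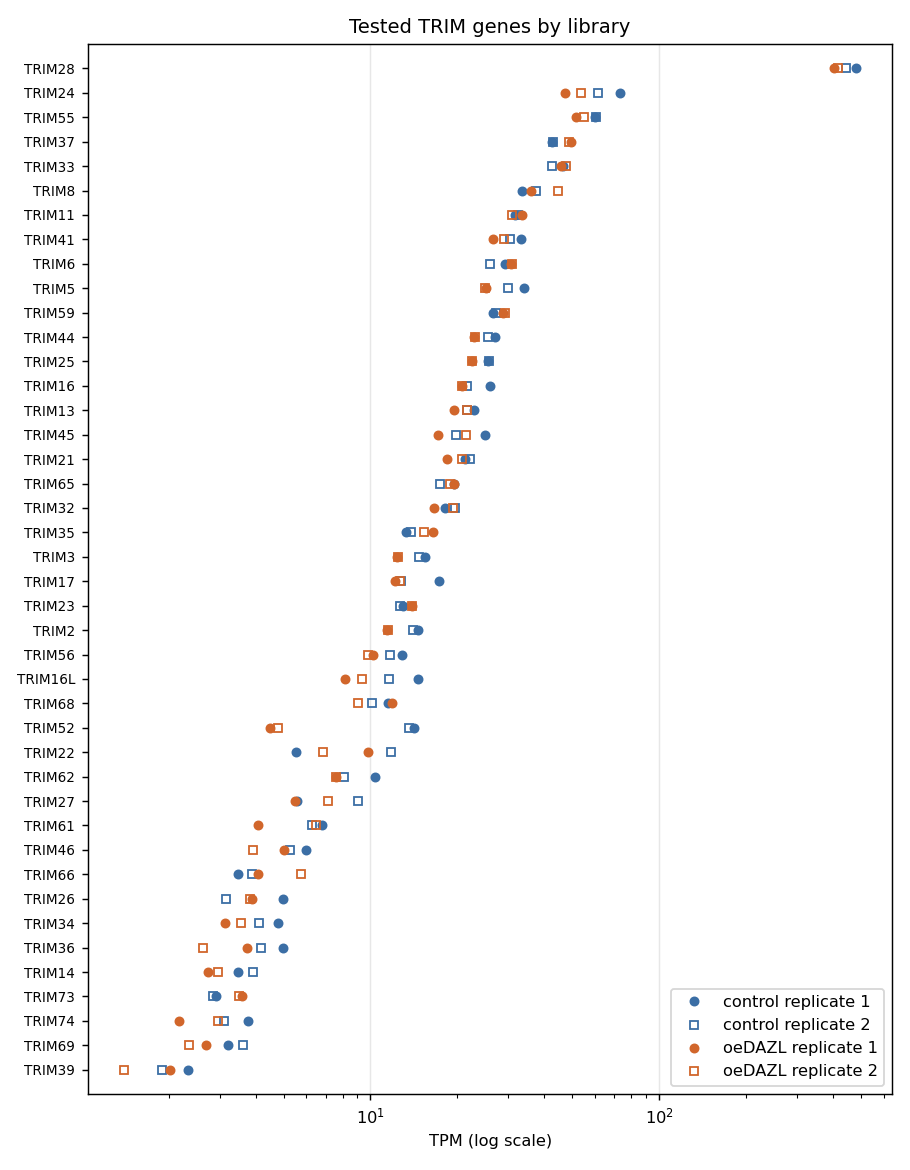
TPM on a log scale (horizontal axis) of the 42 tested TRIM genes (rows, ordered by mean TPM) in each library (filled symbols replicate 1, open symbols replicate 2, blue control, orange oeDAZL). TRIM28 lies between 404 and 480 TPM, TRIM52 has the widest gap between the groups, and most other genes have symbols close together.

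In the TIF1 class, all 4 members were expressed, and 2 were lower and 0 higher at an unadjusted p under 0.05, which 15.2% and 5.02% of all tested genes were. TRIM28 (chr19:58544064-58550722, plus strand) was at 480 and 444 TPM in the controls and 404 and 416 TPM in oeDAZL. The groups did not overlap, and the oeDAZL mean was 88.6% of the control mean. The log2 fold change was -0.17 (SE 0.06, 95% CI -0.32 to -0.03), with a limma adjusted p of 0.195. Without control replicate 1 it was -0.12 and under median-of-ratios scaling -0.09, and in both the unadjusted p was over 0.05.

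TRIM24 (chr7:138460259-138589996, plus strand), a histone reader and ubiquitin ligase of p53, was at 73.4 and 61.4 TPM in the controls and 47.3 and 53.6 TPM in oeDAZL. The oeDAZL mean was 74.9% of the control mean, the log2 fold change was -0.41 (SE 0.11, 95% CI -0.67 to -0.15) and the limma adjusted p was 0.137. Without control replicate 1 the log2 fold change was -0.28. TRIM33 regulates SMAD signalling downstream of TGF-beta and nodal. It was at 46.3 and 42.5 TPM in the controls and 45.7 and 47.5 TPM in oeDAZL. The groups overlapped, with a log2 fold change of 0.07 (95% CI -0.11 to 0.25). This was 0.13 without control replicate 1, 0.01 without control replicate 2 and 0.04 without oeDAZL replicate 2. It was 0.15 under median-of-ratios scaling and 0.11 under quantile normalization. TRIM66, known mainly from testis, was at 3.47 and 3.90 TPM in the controls and 4.08 and 5.76 TPM in oeDAZL. Its groups did not overlap, but the 95% CI of the log2 fold change of 0.32 ran from -0.15 to 0.80, and it was 0.53 without oeDAZL replicate 1 and 0.12 without oeDAZL replicate 2.

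The genes that work with TRIM28 in silencing were read beside it. Of 16 such genes, 15 were tested, 4 were lower and 1 was higher at an unadjusted p under 0.05, beside 15.2% and 5.02% of all tested genes, and 0 had an adjusted p under 0.05 in limma. Their median log2 fold change was -0.09, beside -0.08 for all tested genes, and it was -0.0036 under median-of-ratios scaling. CHD3, a chromatin remodeller of the NuRD complex, was at 70.9 and 65.5 TPM in the controls and 52.1 and 55.6 TPM in oeDAZL, with a log2 fold change of -0.34 and a limma adjusted p of 0.107. The values of CBX3, which encodes the heterochromatin protein HP1 gamma, lay in the opposite order, at 250 and 237 TPM in the controls and 288 and 295 TPM in oeDAZL (log2 fold change 0.26, limma adjusted p 0.104). CBX5, which encodes HP1 alpha, ATF7IP, the cofactor of SETDB1, and TASOR, a core component of the HUSH silencing complex, were the remaining 3 lower genes. Their log2 fold changes were -0.25, -0.23 and -0.24. SETDB1 itself, the H3K9 methyltransferase that TRIM28 recruits, was at 43.0 and 36.6 TPM in the controls and 33.3 and 34.3 TPM in oeDAZL, with a log2 fold change of -0.22 and a limma adjusted p of 0.260. In SETDB1, ATF7IP and CBX5, control replicate 2 lay nearer to both oeDAZL values than to control replicate 1. The size of these differences thus depended on control replicate 1. ZFP57, a KRAB zinc finger gene of imprint maintenance, was at or below 0.0193 TPM in all libraries and was not tested.

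In the NHL class, which TRIM71 would belong to, 3 of 3 members were tested and 2 were lower at an unadjusted p under 0.05, beside 15.2% of all tested genes. TRIM2, a ubiquitin ligase of neurons, was at 14.6 and 14.1 TPM in the controls and 11.4 and 11.5 TPM in oeDAZL, a log2 fold change of -0.30 (SE 0.10, limma adjusted p 0.189). TRIM3, also a ligase known from brain, was at 15.4 and 14.7 TPM in the controls and 12.4 and 12.4 TPM in oeDAZL, a log2 fold change of -0.26 (SE 0.10, limma adjusted p 0.220). In both genes the groups lay apart by more than the replicate gap. Under median-of-ratios and quantile scaling and without control replicate 1, both had an unadjusted p over 0.05 in limma. TRIM32, mutated in a limb-girdle muscular dystrophy, was at 18.2 and 19.6 TPM in the controls and 16.6 and 19.3 TPM in oeDAZL, with overlapping groups and a log2 fold change of -0.07 that was 0.01 under both other scalings. It was -0.12 and -0.02 without control replicates 1 and 2, and 0.03 and -0.17 without oeDAZL replicates 1 and 2.

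In the COS class, 3 of 8 members were tested and 1 was lower at an unadjusted p under 0.05, beside 15.2% of all tested genes. TRIM55, known as the muscle ligase MuRF2, was the third of the tested members by the mean over the 4 libraries, at 59.8 and 60.6 TPM in the controls and 51.7 and 55.1 TPM in oeDAZL. Its log2 fold change was -0.17 (SE 0.07, limma adjusted p 0.231), and it was -0.09 under median-of-ratios scaling and -0.12 under quantile normalization, with an unadjusted p over 0.05 in both. TRIM46, which organizes microtubules at the axon initial segment, was at 5.98 and 5.26 TPM in the controls and 5.0 and 3.90 TPM in oeDAZL (log2 fold change -0.29, limma adjusted p 0.393). Its groups did not overlap and its CI included 0. The log2 fold change was -0.43 without oeDAZL replicate 1, -0.14 without oeDAZL replicate 2 and -0.14 under quantile normalization.

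Classes with membrane anchors or rarer domains gave small differences. TRIM59 and TRIM13, which carry transmembrane segments, had log2 fold changes of 0.11 and -0.11 with intervals that included 0. Under median-of-ratios scaling and quantile normalization the log2 fold change of TRIM59 was 0.19 and 0.18. Its unadjusted limma p was under 0.05 in the first only. Under the same scalings that of TRIM13 was -0.03 and -0.02. TRIM59 was at 26.6 and 27.2 TPM in the controls and 28.8 and 29.3 TPM in oeDAZL. TRIM13 was at 22.9 and 21.5 TPM in the controls and 19.5 and 21.6 TPM in oeDAZL, and its log2 fold change was -0.07 without control replicate 1, -0.04 without oeDAZL replicate 1 and -0.18 without oeDAZL replicate 2. TRIM37, a MATH-domain ligase active at peroxisomes and centrosomes, was the only member higher at an unadjusted p under 0.05. Its level was 42.6 and 43.0 TPM in the controls and 49.6 and 48.6 TPM in oeDAZL, a log2 fold change of 0.19 (SE 0.07, 95% CI 0.04 to 0.35, limma adjusted p 0.191). The groups lay apart by more than the replicate gaps. TRIM45, a filamin-domain member, was at 24.9 and 19.8 TPM in the controls and 17.1 and 21.4 TPM in oeDAZL, with overlapping groups and a log2 fold change of -0.20. This was -0.05 without control replicate 1 or oeDAZL replicate 1, and -0.36 without control replicate 2 or oeDAZL replicate 2.

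Among the 6 tested members with no C-terminal domain, TRIM52 had the largest difference in size. The other 5 lay between -0.32 and 0.23 on the log2 scale. TRIM8, a ligase of cytokine signalling, was at 33.5 and 37.5 TPM in the controls and 36.0 and 44.8 TPM in oeDAZL (log2 fold change 0.18, overlapping groups). The value was 0.10 without control replicate 1, 0.33 without oeDAZL replicate 1 and 0.02 without oeDAZL replicate 2. TRIM56, an antiviral ligase, was at 12.8 and 11.6 TPM in the controls and 10.2 and 9.81 TPM in oeDAZL (log2 fold change -0.27, SE 0.11, limma adjusted p 0.256). TRIM73 and TRIM74 are near-identical copies on chromosome 7, so the division of reads between them is uncertain, and their log2 fold changes were 0.23 and -0.32.

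Among members without a RING finger, 4 of 5 were tested and the single gene lower at an unadjusted p under 0.05 was TRIM16L, beside 15.2% of all tested genes. It was at 14.6 and 11.6 TPM in the controls and 8.19 and 9.36 TPM in oeDAZL. The log2 fold change was -0.52 (SE 0.15, 95% CI -0.88 to -0.17), the second lowest estimate among members, with a limma adjusted p of 0.151, and it was -0.37 without control replicate 1. TRIM16L resembles TRIM16, which was at 25.9 and 21.7 TPM in the controls and 20.7 and 20.8 TPM in oeDAZL (log2 fold change -0.18, or -0.06 without control replicate 1 and -0.31 without control replicate 2), and how reads were divided between these copies is uncertain. TRIM44 was at 27.0 and 25.5 TPM in the controls and 22.9 and 23.1 TPM in oeDAZL (log2 fold change -0.18, limma adjusted p 0.274).

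The PRY-SPRY class held most names, 39, of which 17 were tested. Of these, 1 was lower and 0 were higher at an unadjusted p under 0.05, beside 15.2% and 5.02% of all tested genes, and their median log2 fold change was -0.16. TRIM5, which restricts retroviruses by binding their capsids, was the lower gene. It was at 34.2 and 29.9 TPM in the controls and 25.1 and 24.9 TPM in oeDAZL, a log2 fold change of -0.34 (SE 0.09, 95% CI -0.56 to -0.12, limma adjusted p 0.139), and -0.25 without control replicate 1. TRIM11, the highest of the class by the mean over the 4 libraries, was at 31.7 and 32.4 TPM in the controls and 33.5 and 30.8 TPM in oeDAZL, with a log2 fold change of 0.0015, between -0.06 and 0.06 with oeDAZL replicate 1 or 2 left out, and overlapping groups. TRIM41, next by that mean with values that overlap those of TRIM5 and TRIM6, is described above with its neighbours.

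TRIM5 lies in a cluster on chromosome 11 with TRIM6, TRIM34 and TRIM22, and the annotated span of TRIM5 contains TRIM22 on the other strand. The log2 fold changes along the cluster were 0.16 for TRIM6, -0.32 for TRIM34, -0.34 for TRIM5 and 0.01 for TRIM22. Neighbouring members thus had estimates on both sides of 0. The interferon-inducible genes TRIM5, TRIM14, TRIM21, TRIM22, TRIM25, TRIM34 and TRIM38 were taken across the classes. Of these 7, 6 were tested, and 1 was lower (TRIM5) and 0 were higher at an unadjusted p under 0.05, beside 15.2% and 5.02% of all tested genes. An estimate below 0 was found for 5 of the 6, beside 65.3% of all tested genes, and their median was -0.23.

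**Figure D3:**
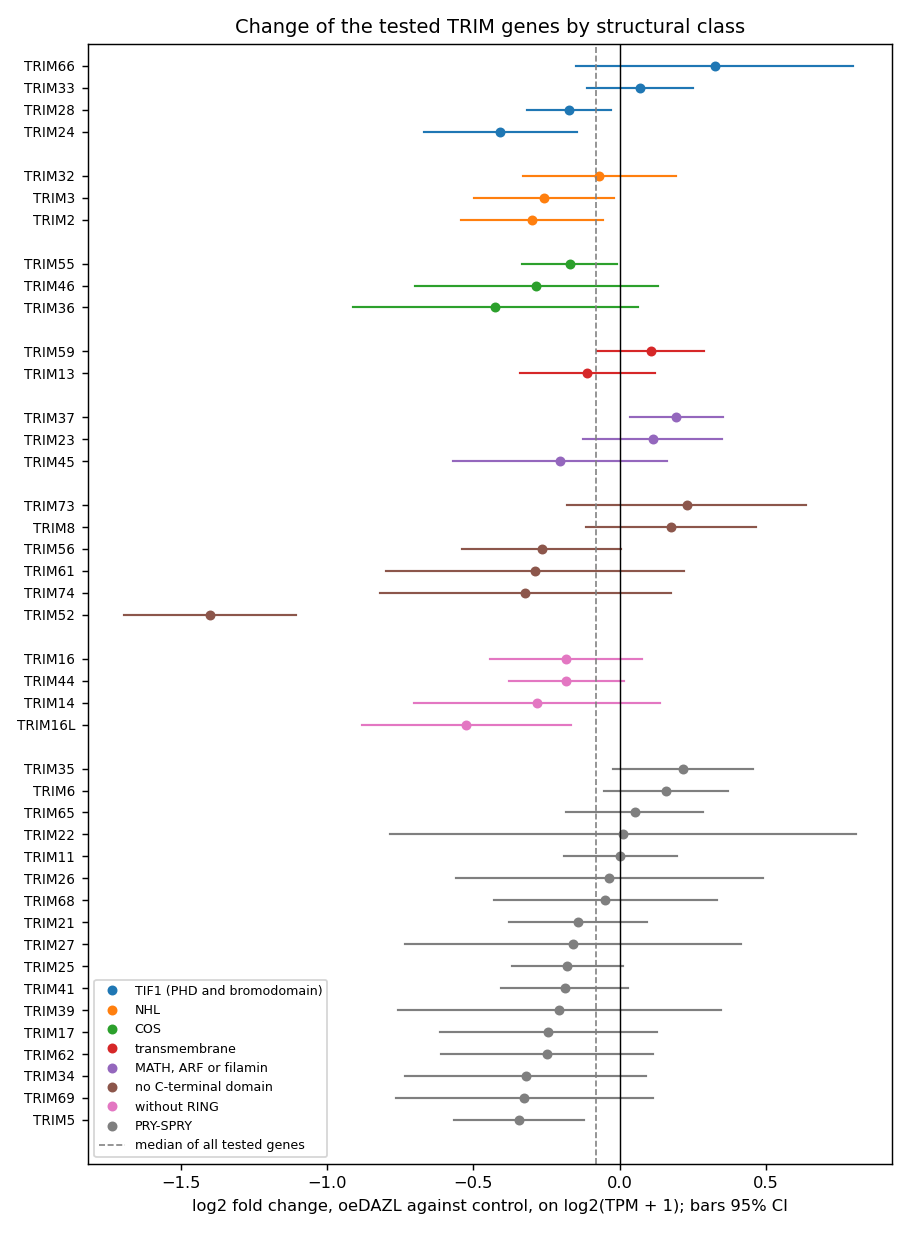
Log2 fold change of oeDAZL against control on log2(TPM + 1) (horizontal axis) for the 42 tested TRIM genes (rows, grouped and coloured by structural class), with bars for the 95% CI and a dashed line at the median of all tested genes, -0.08. TRIM52 lies at -1.40, apart from the other members of its class, which lie between -0.32 and 0.23.

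Proteins of the family that carry other names were read as a comparison. Of 7 such genes, 5 were tested, 0 passed an unadjusted p of 0.05 in either direction, beside 15.2% lower and 5.02% higher of all tested genes, 0 had an adjusted p under 0.05 in limma, and the median log2 fold change was -0.14, beside -0.08 for all tested genes. TRIML2 was at 156 and 142 TPM in the controls and 137 and 134 TPM in oeDAZL (log2 fold change -0.14, limma adjusted p 0.288), a level above every named TRIM gene except TRIM28. MID1, a microtubule-associated ligase, was at 91.7 and 98.3 TPM in the controls and 102 and 101 TPM in oeDAZL (log2 fold change 0.09). PML, the scaffold of PML nuclear bodies, was at 24.8 and 22.2 TPM in the controls and 20.6 and 20.2 TPM in oeDAZL (log2 fold change -0.19, limma adjusted p 0.300). In TRIML2, MID1 and PML, control replicate 2 lay nearer to both oeDAZL values than to control replicate 1. The size of these differences thus depended on control replicate 1.

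Members around the filter and below it were listed at low levels. TRIM39, just inside, was at 2.33 and 1.89 TPM in the controls and 2.01 and 1.40 TPM in oeDAZL. Its groups overlapped, with a log2 fold change of -0.21 (limma adjusted p 0.644) that was -0.10 without control replicate 1. The value was -0.37 without oeDAZL replicate 1, -0.04 without oeDAZL replicate 2 and -0.03 under quantile normalization. TRIM39 also has additional copies of its name listed at 0, as do the tested members TRIM26, TRIM27 and TRIM69. The study's methods keep only uniquely mapped reads, so reads shared between such copies may be missing. Whether the levels of these members are understated was not tested. TRIM38, just outside, was at 1.30 and 1.01 TPM in the controls and 0.680 and 0.780 TPM in oeDAZL. The other 11 members listed above 0 but not tested had means from 0.00933 TPM (TRIM31) to 0.865 TPM (TRIM9). The TRIM49, TRIM64 and TRIM43 names, near-identical copies, were listed at 0 in all libraries, which TPM values cannot separate from a low level. The read-through entry TRIM6-TRIM34 was also listed at 0.

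Because the study concerns miRNAs raised with DAZL, members were searched for sites of miR-199a-5p, 1 of the miRNAs that it tested. The search was chosen after the values were seen. No search is given here for the let-7 family or miR-10b-5p, which the study also reports as raised. The mature miRNA (RefSeq, GRCh38.p14) is shown with the seed, bases 2 to 8, in capitals.

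hsa-miR-199a-5p: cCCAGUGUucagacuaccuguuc

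A site was the complement of the seed followed by A (ACACTGGA), read on the transcript strand in the longest GENCODE 44 3′UTR of each gene. Of 13047 tested genes with a 3′UTR, 4.99% held this site. Of 41 tested members with a 3′UTR, 1 held it (2.44%), TRIM56. The longest 3′UTR of TRIM52 did not hold it. The site at chr7:101095760-101095767 on the plus strand is shown in capitals with 11 bases on either side.

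TRIM56: agcagcaaaggACACTGGAaaatgagaagc

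TRIM56 had the log2 fold change of -0.27 given above (limma adjusted p 0.256). Both of its oeDAZL values lay below both controls, as they did for 38.4% of all tested genes. The 3′UTR searched in TRIM56 was 8387 bases long, and the search made no allowance for length. Over all tested genes with a 3′UTR the median was -0.08 with the site and -0.07 without it. A match of letters is a description and no measure of binding, and the miRNA libraries of the series were not analysed here.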

How the data were processed

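RNA sequencing of 2 control and 2 oeDAZL libraries was analysed. The authors deposited 1 table of TPM per gene. The study's methods and the submitters' processing notes give trimming with Trim Galore (0.6.4 in the notes, another version in the methods), mapping to hg38 with HISAT2 2.1.0 and quantification with StringTie 2.1.4, and the annotation release is not given in the sources used here. TPM is scaled to a fixed total and keeps no read depth, so depth is unknown, no counting interval was computed, and precision rests on n = 2 libraries per group. Of 65003 rows, 45 pseudoautosomal copies and 18 repeats were left out.

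Values were transformed to log2(TPM + 1), which understates the change of low genes. Genes whose mean TPM reached 1 (16687) entered a model without covariates in limma 3.58.1 (R 4.3.3; lmFit and trended eBayes), and p-values were Benjamini-Hochberg adjusted over all of them. An exact permutation test of 2 against 2 libraries could not go below 0.333. The members, classes and gene lists were chosen with earlier results of these data known. Full values are given for TRIM52, TRIM28, members called by either rule, the 10 with the lowest unadjusted p, the 2 highest in each class, all TIF1 and NHL members and those nearest the filter. Coordinates are from GENCODE 44 on hg38. Alternatives were another pseudocount, no filter or a stricter one, 2 other scalings, TPM without mitochondrial genes, a replicate block, limma without a trend, and leaving out each library. A crossed pairing was added after the data were seen.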

Additional observations from a re-analysis of the deposited data

How the results depend on the processing

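TRIM52 stayed lower in oeDAZL under each of the 12 alternatives. Its log2 fold change, with the limma adjusted p, was -1.40 (0.322) without a filter, -1.33 (0.0656) under median-of-ratios scaling, -1.27 (0.0644) under quantile normalization and -1.40 (0.202) without a trend, and leaving out each library gave -1.44 to -1.36. The number of members with an adjusted p under 0.05 was 0 in place of 1 under these 4 settings and 0 to 1 with a library left out. Of the left-out libraries, only the fit without control replicate 2 gave 1, and there 4.03% of all tested genes had an adjusted p under 0.05, in place of 0.0599%. Members higher at an unadjusted p of 0.05 numbered 2 of 54 without a filter, where 3.26% of all tested genes were higher. They numbered 4 under each other scaling, in place of 1. The shares of all tested genes were 9.95% under median-of-ratios scaling and 8.40% under quantile normalization, in place of 5.02%. Counts of higher members with a library left out are given above. Members lower numbered 4 under median-of-ratios scaling, 5 under quantile normalization and 4 to 13 with a library left out, in place of 8, while the share of all tested genes that were lower ran from 7.35% to 19.7% with a library left out. The member median was -0.10 under each other scaling and -0.23 to -0.12 with a library left out, in place of -0.18, while its distance from the median of all tested genes stayed between -0.13 and -0.06. The median of TRIM28 partner genes was -0.0036 under median-of-ratios scaling and -0.12 to -0.06 with a library left out, in place of -0.09. The cause of these shifts was not tested. TRIM11, at 0.0015, was at -0.06 to 0.06 with a library left out, with -0.01 without control replicate 1 and -0.06 without oeDAZL replicate 1. TRIM32, at -0.07, was at 0.01 under both other scalings and at -0.17 to 0.03 with a library left out. The other 78 values of these comparisons and 245 values of named genes kept direction and call, changed as counts by less than 1.5 times or moved by less than the spread between replicates. Where a library was left out, the lone library of its group was assumed to vary like the other group. Read depth, unknown for TPM, could not be weighed.

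The groups share replicate numbers, and no label says that a number marks a shared origin. Deviations of same-numbered libraries correlated at -0.104 over genes. With the replicate block, TRIM52 was at -1.40 (limma adjusted p 0.112), and 0 members had an adjusted p under 0.05 (0.0240% of all tested genes), 4 were lower (12.6% of all tested genes) and 0 higher (4.02%) at an unadjusted p of 0.05. With the crossed pairing, chosen after seeing the data, 3 members had an adjusted p under 0.05 (7.14%), beside 6.53% of all tested genes, and 8 were lower and 1 higher at an unadjusted p, beside 17.7% and 6.35%.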
